A study of Oryza sativa Japonica Group with 9 samples.

Results

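The genes described here encode the heat shock machinery of rice (Oryza sativa Japonica, cultivar Nipponbare) as it was expressed in roots. A gene was taken if its deposited domain description held a heat shock factor DNA-binding domain (HSF), an Hsp20, Hsp70 or Hsp90 domain, or a BAG domain. The rule itself used no measured value, but the members were chosen with earlier results of these data known. It gave 96 of 35902 genes: 23 HSF genes, 28 Hsp20 genes, 28 Hsp70 genes, 11 Hsp90 genes and 6 BAG genes. Roots were sampled under N deficiency, under P deficiency and with control nutrients, 3 biological replicates each, and the RNA was sequenced. All 9 libraries were Nipponbare roots, with no other genotype. The same 3 control libraries served both deficiencies, so both comparisons with control share them. Plant age, the length of treatment and the nutrient levels were not given in the sources used here.

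Heat shock factors are transcription factors that bind inverted repeats in the promoters of chaperone genes. Those of class A activate, those of class B lack the activation motif and mostly repress, and class C is best represented in grasses. Hsp70 and Hsp90 are ATP-driven chaperones that hold and fold client proteins, and Hsp20 proteins (small heat shock proteins) keep unfolded proteins from clumping. BAG proteins are co-chaperones that bind the ATPase domain of Hsp70 and release its nucleotide. In Arabidopsis some of them also carry a ubiquitin-like domain, which links Hsp70 to the proteasome, and others bind calmodulin. Many heat shock factor and chaperone genes are best known from heat, but cytosolic and organelle members also serve unstressed cells.

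Each library held between 17931023 and 22752492 reads in the genes of its table. Values are normalised reads, that is, reads divided by 1 size factor per library. Each comparison with control uses the scale of its own deposited table, so control values differ slightly between them, and comparisons of N with P deficiency use 1 scale over all 9 libraries. A log2 fold change is the first group minus the second on the log2(value + 1) scale, given with its SE, and it understates the change of low genes. A gene passed at an adjusted p under 0.05 (limma, Benjamini-Hochberg over all genes tested). P deficiency library 3 stood apart from the other 8 on the third principal component (16.4% of the variance), at 100.5 against -41.5 to 20.9. The root genes Lsi1, Lsi2 and RCc3 were high in every library, between 21150.5 and 94680.3 normalised reads. All 22 chlorophyll a-b binding genes, markers of shoot tissue, had reads. They summed to 6907 to 9854 normalised reads under N deficiency, 17812 to 26030 under P deficiency and 23135 to 63439 in control. Under N deficiency 18 of these 22 genes passed as lower than control and under P deficiency 1 did (limma, adjusted p under 0.05). Their part in the results below was not tested. In such bulk tissue fewer cells of a type and less RNA per cell cannot be told apart.

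Levels differed widely among these genes. Compared per kb of gene model, the BAG genes had the highest family median of mean level over 9 libraries, 1467 normalised reads per kb. The other medians were 301 for Hsp90, 108 for HSF, 84.2 for Hsp70 and 70.2 for Hsp20, against 88.7 over the 34285 genes in both deposited tables. The highest single level was that of the Hsp70 gene Os03g0276500, at 10116 normalised reads per kb. It was followed by the Hsp90 gene HSP81-1 at 6058 and the BAG genes Os08g0546100 at 6044 and Os06g0126500 at 4492 normalised reads per kb. Os03g0276500 had 9791 ± 181 normalised reads per kb under N deficiency, 11277 ± 666 under P deficiency and 9279 ± 2206 in control (SD, n = 3 each). The order of HSP81-1 and Os08g0546100 depended on the group. Os08g0546100 had 8080 ± 1127 normalised reads per kb under N deficiency, 6567 ± 1237 under P deficiency and 3485 ± 382 in control. HSP81-1 had 5952 ± 286 under N deficiency, 6753 ± 1176 under P deficiency and 5468 ± 1109 in control (SD, n = 3 each). The 2 genes overlapped only under P deficiency, where their libraries could not be ranked. Over all 9 libraries the highest HSF means were HSFA2C at 712 and HSFA1 at 440 normalised reads per kb, and the highest Hsp20 means were HSP24.1 at 1202 and HSP18.9 at 747. In control alone HSFC2A had the highest HSF mean, 775 ± 249 normalised reads per kb (SD, n = 3). Its control libraries ran from 609.5 to 1061 normalised reads per kb, and HSFA2C, at 685 ± 53.0, lay within that range. The mean of HSFC2A over all libraries, 426, includes its lower values under both deficiencies. At the low end, 15 of 94 members averaged under 10 normalised reads per kb, of which 6 were Hsp20 genes and 0 were BAG genes.

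**Figure D1:**
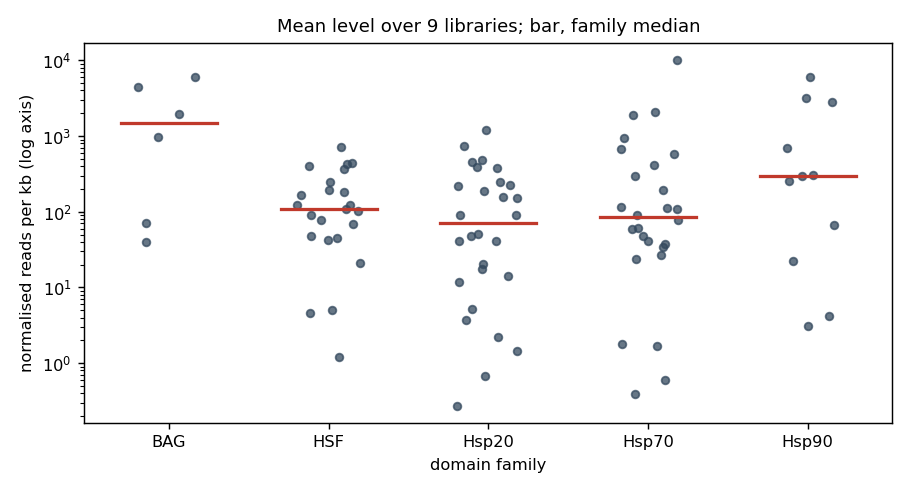
Mean level over 9 libraries of each member found in both deposited tables, in normalised reads per kb of gene model on a log axis, by domain family. Each point is 1 gene and the bar is the family median, which is highest for BAG (1467) and lowest for Hsp20 (70.2).

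Under N deficiency 14 of 93 tested members passed, 15.1%, beside 12.8% of all 32680 genes tested. Of the 14, 10 were higher and 4 lower than in control. Under P deficiency 7 of 93 passed, 7.53%, beside 6.28% of all 32576 genes tested, with 5 higher and 2 lower. Between N and P deficiency 4 of 93 passed, 4.30%, beside 3.78% of all 32806 genes tested, with 2 higher and 2 lower under N deficiency. These shares lie near those over all genes, so the counts say nothing of the members as 1 set, and what follows describes single families and genes. By family, 5 of 6 BAG genes, 3 of 26 Hsp70 genes, 1 of 23 HSF genes and 1 of 28 Hsp20 genes were higher under N deficiency. Lower were 1 HSF gene, 2 Hsp20 genes and 1 of 10 Hsp90 genes. Under P deficiency 2 of 6 BAG genes, 2 of 26 Hsp70 genes and 1 of 23 HSF genes were higher, and 1 HSF gene and 1 of 27 Hsp20 genes were lower. Of all genes tested, 6.9% were higher and 5.94% lower under N deficiency, and 3.58% were higher and 2.7% lower under P deficiency. Among the 87 tested members other than BAG genes, 10.3% passed under N deficiency and 5.75% under P deficiency. These shares also lie near the 12.8% and 6.28% over all genes. Members not tested had 2 to 6 reads in all. They were Os01g0180850 and Os04g0108101 under N deficiency, and HSP26.7 and BIP2 under P deficiency. BIP2 has no entry in the N deficiency table used here, and Os01g0180850 none in the P deficiency table.

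**Figure D2:**
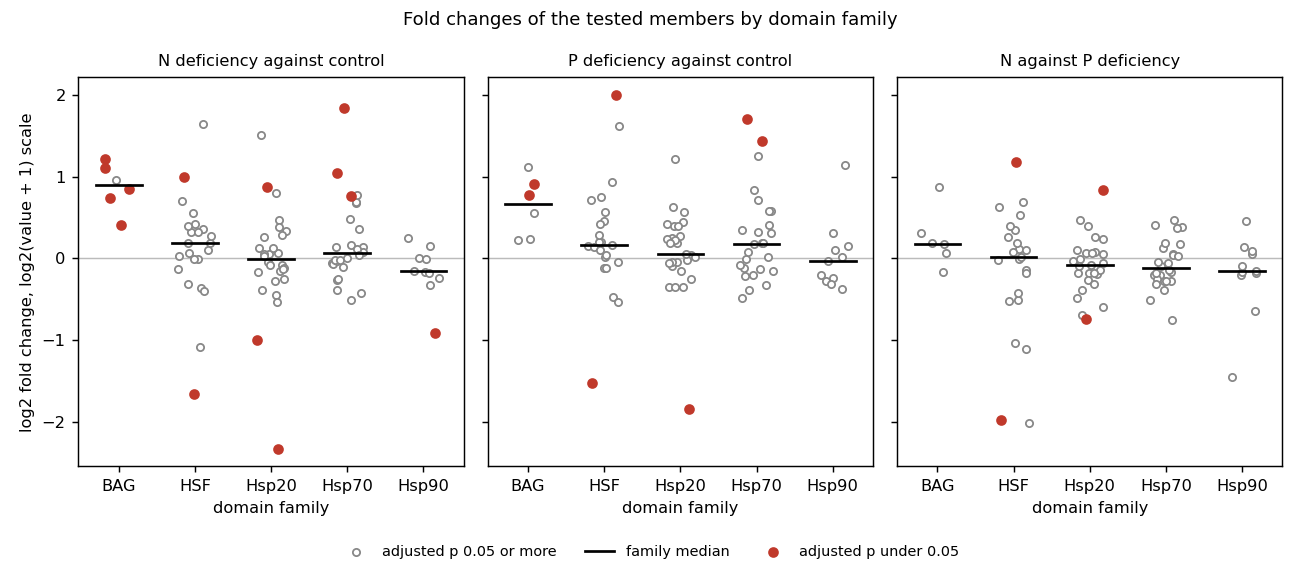
Log2 fold change of every tested member by domain family, on the log2(value + 1) scale, for N deficiency against control, P deficiency against control and N against P deficiency. Filled points have an adjusted p under 0.05 (limma), open points do not, and bars are family medians. The BAG median was 0.90 under N deficiency and 0.67 under P deficiency.

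All 6 BAG genes had a positive log2 fold change under both deficiencies, with 5 of 6 passing under N deficiency and 2 of 6 under P deficiency. Each of the 6 was higher in every N deficiency library than in any control library, a pattern held by 15.8% of all genes tested. Under P deficiency 4 of 6 were, against 13.3% of all genes. Their median log2 fold change was 0.90 under N deficiency and 0.67 under P deficiency, where the medians over all genes were -0.01 and 0.00. Summed over the 6 genes on the common scale, normalised reads were 23287, 31367 and 28682 under N deficiency, 29084, 25607 and 18191 under P deficiency, and 14210, 14114 and 15298 in control. Every deficiency library lay above every control library, and P deficiency library 3 was the lowest of the 6 deficiency libraries. BAG reads made up between 0.0705% and 0.154% of the reads in a library. That sum is set by the abundant genes Os08g0546100, Os06g0126500 and Os09g0524800.

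Os08g0546100, on chromosome 8 at 27357179 to 27358774 (minus strand), was the most abundant BAG gene and has no ubiquitin domain in its description. It had 10184.5, 13270.2 and 12968 normalised reads under N deficiency, against 5009, 4790.5 and 5881 in control. The groups did not overlap, and the lowest N deficiency library lay far above the highest control library. The log2 fold change was 1.21 ± 0.142 (limma, adjusted p 0.0011), and the gene passed under each of 14 alternative settings. The P deficiency libraries had 11161, 9394 and 7648 normalised reads, against 4809, 4578 and 5572 in control. Again no library overlapped, and the log2 fold change was 0.90 ± 0.162 (limma, adjusted p 0.020). That call passed in 10 of 14 alternatives and was lost when P deficiency library 1 or 2, or control library 1 or 2, was left out.

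The 3 BAG genes with a ubiquitin domain in their description are Os06g0126500, Os09g0524800 and Os01g0831200. Os06g0126500 (chromosome 6, 1414221 to 1416298, plus strand) had 8655, 11666 and 9345 normalised reads under N deficiency, against 5796, 5969 and 5853 in control. The control libraries lay close together and below all N deficiency libraries, and the log2 fold change was 0.74 ± 0.130 (limma, adjusted p 0.0072). In P deficiency libraries it had 10766, 9658 and 5346 normalised reads, against 5564, 5704 and 5546 in control. Libraries 1 and 2 were well above control and library 3 was below it, so the groups overlapped. The log2 fold change was 0.55 ± 0.249 and did not pass (limma, adjusted p 0.25). Without P deficiency library 3 it was 0.86 and passed (limma, adjusted p 0.0030).

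Os09g0524800 (chromosome 9, 20494540 to 20496911, minus strand) passed under both deficiencies. It had 3754, 5735 and 5662 normalised reads under N deficiency, against 2655, 2719 and 2891 in control, a log2 fold change of 0.85 ± 0.164 (limma, adjusted p 0.011). P deficiency libraries had 5258, 4709.5 and 3704 normalised reads, against 2549, 2598 and 2739 in control, a log2 fold change of 0.78 ± 0.140 (limma, adjusted p 0.020). Neither deficiency group overlapped control, although each held 1 library (N deficiency 1, P deficiency 3) lower than its partners. The N deficiency call was lost without control library 2, and the P deficiency call without P deficiency library 1 or 2 or any 1 control library. Os01g0831200 had the smallest change of the 6 under N deficiency. It had 1174, 1391 and 1368 normalised reads under N deficiency, against 1012, 943 and 993 in control, a log2 fold change of 0.41 ± 0.0993 (limma, adjusted p 0.029). That call held in 9 of 14 alternatives and was lost without N deficiency library 2 or 3 or any 1 control library. Its log2 fold change under P deficiency was 0.24 ± 0.0990 (limma, adjusted p 0.22).

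The remaining BAG genes, Os11g0506800 and Os02g0719700, were of low abundance and have no ubiquitin domain in their descriptions. Os11g0506800 had 91.3, 94.6 and 75.3 normalised reads under N deficiency, against 28.8, 35.9 and 61.4 in control. The groups did not overlap, and the log2 fold change was 1.10 ± 0.289 (limma, adjusted p 0.041), but only 7 of 14 alternatives kept the call. Under P deficiency its log2 fold change was 0.22 ± 0.385 (limma, adjusted p 0.79), with overlapping groups. For Os02g0719700 the counts were 55.2, 85.4 and 78.3 normalised reads under N deficiency, against 48.3, 32.0 and 31.6 in control. Its log2 fold change of 0.95 ± 0.265 fell just outside the threshold (limma, adjusted p 0.0502), as did that of 1.11 ± 0.276 under P deficiency (limma, adjusted p 0.060). The N deficiency change passed in 7 of 14 alternatives, edgeR and DESeq2 among them, so that both tools called 6 of 6 BAG genes, beside 12.7% and 14.8% of all genes. The P deficiency change passed in 2 of 14, DESeq2 and 1 fit over all 9 libraries. Between N and P deficiency 0 of 6 BAG genes passed in limma, edgeR or DESeq2, and 1 had an unadjusted limma p under 0.05, as did 16.6% of all genes. The largest log2 difference there, that of Os11g0506800, was 0.87 ± 0.338 (limma, adjusted p 0.23).

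**Figure D3:**
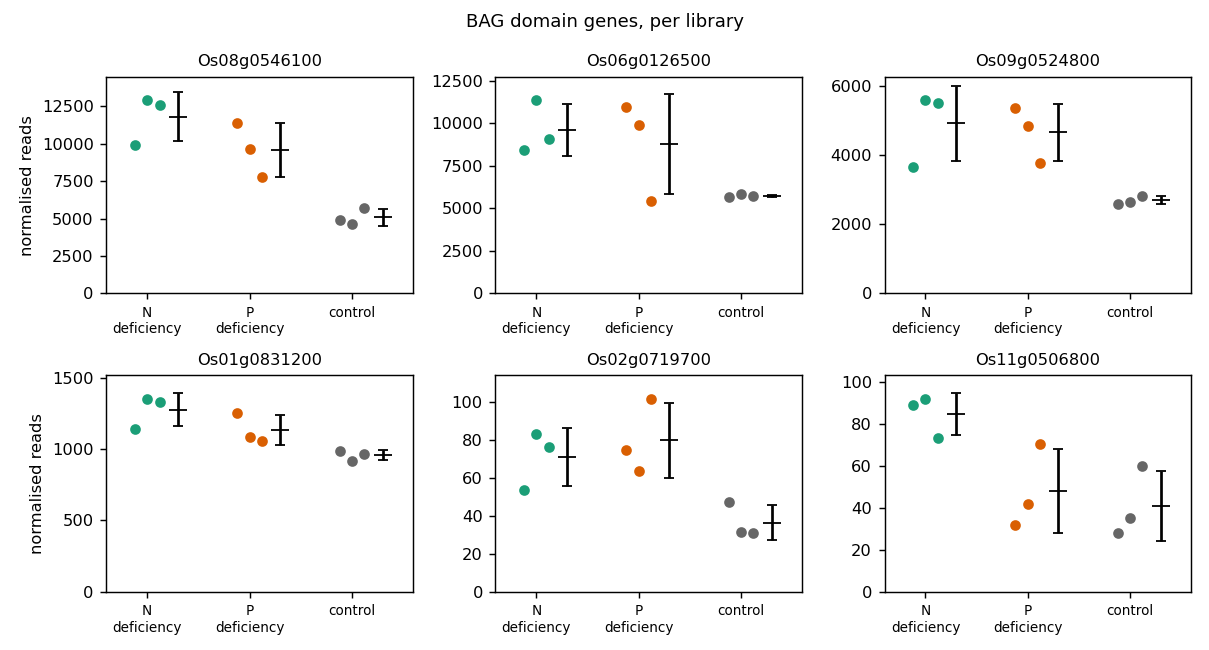
Normalised reads of the 6 BAG genes in each library on the scale common to 9 libraries, with N deficiency left, P deficiency middle and control right. Points are libraries 1 to 3 and bars are the mean ± SD. All 6 genes had every N deficiency library above every control library, and Os06g0126500 had P deficiency library 3 at the level of control.

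Of 23 HSF genes, 2 passed in each comparison, 8.70%. The shares of all genes were 12.8% under N deficiency, 6.28% under P deficiency and 3.78% between the deficiencies. HSFA2B rose under P deficiency, and the difference between the deficiencies passed as well. It had 342, 324 and 379 normalised reads under P deficiency, against 95.02, 63.03 and 106.6 in control. The P deficiency libraries lay together, more than 3 times above the highest control library, and the log2 fold change was 2.0 ± 0.207 (limma, adjusted p 0.0024). Under N deficiency it had 93.2, 78.3 and 106 normalised reads, against 99.0, 65.9 and 112 in control. Those groups overlapped fully, with a log2 fold change of 0.02 ± 0.234 (limma, adjusted p 0.97). The difference of N from P deficiency was -1.98 ± 0.204 on the log2 scale (limma, adjusted p 3.7e-04). Both HSFA2B calls held under every alternative tried, 14 for P deficiency against control and 17 for N against P deficiency. HSFA2B is a class A factor at 4139160 to 4142436 on the plus strand of chromosome 7. Its nearest genes in the tables, 980 bases and 3476 bases away, both encode chlorophyll a-b binding proteins.

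HSFC2A, a class C factor (chromosome 2, 7464028 to 7465505, plus strand), fell under both deficiencies. It had 474, 252 and 320 normalised reads under N deficiency, against 1512, 934 and 871 in control, a log2 fold change of -1.67 ± 0.265 (limma, adjusted p 0.0046). P deficiency libraries had 409, 326 and 331 normalised reads, against 1452, 893 and 826 in control, a log2 fold change of -1.53 ± 0.218 (limma, adjusted p 0.0087). All 6 deficiency libraries were below all 3 control libraries, of which control library 1 was by far the highest. Both calls held in 14 of 14 alternatives. N and P deficiency differed by -0.14 ± 0.254 on the log2 scale, which did not pass (limma, adjusted p 0.84). Its class C relative HSFC2B showed a different order of groups. On the common scale it had 90.8, 98.9 and 73.2 normalised reads under N deficiency, against 36.7, 36.8 and 40.8 under P deficiency. The groups did not overlap, and the log2 difference was 1.17 ± 0.238 (limma, adjusted p 0.024), a call kept in 13 of 17 alternatives. Against control neither arm passed, with log2 fold changes of 0.70 ± 0.249 under N deficiency and -0.47 ± 0.260 under P deficiency (limma, adjusted p 0.11 and 0.35).

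HSFB1, a class B factor (chromosome 9, 17221479 to 17228923, plus strand), rose under N deficiency. It had 225, 198 and 246 normalised reads there, against 119, 101 and 115 in control, so that every N deficiency library was well above control. The log2 fold change was 0.99 ± 0.145 (limma, adjusted p 0.0032), kept in 14 of 14 alternatives. Under P deficiency HSFB1 had 128, 138 and 179 normalised reads, against 114, 96.4 and 109 in control. These groups did not overlap either, but the log2 fold change of 0.46 ± 0.175 did not pass (limma, adjusted p 0.18). The log2 difference between N and P deficiency was 0.53 ± 0.160 and did not pass (limma, adjusted p 0.12). It passed only without P deficiency library 3, at 0.67 (limma, adjusted p 0.041).

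HSFA3, a class A factor that in Arabidopsis acts downstream of the drought factor DREB2A, had the widest spread of the HSF genes between P deficiency libraries. It had 24.4, 22.9 and 907 normalised reads under P deficiency, against 25.4, 19.5 and 34.4 in control. P deficiency library 3 alone carried the difference, and libraries 1 and 2 lay within the control range. The log2 fold change was 1.61 ± 1.29 (limma, adjusted p 0.53), and without that library it was -0.12 (limma, adjusted p 0.86). N deficiency libraries had 11.4, 11.2 and 62.6 normalised reads of HSFA3. The abundant factors HSFA2C and HSFA1 moved little. HSFA1, a relative of the master activators of the heat response in tomato and Arabidopsis, had 993, 944 and 1018 normalised reads under N deficiency, against 842, 856 and 897 in control. That log2 fold change of 0.19 ± 0.0869 did not pass (limma, adjusted p 0.22). HSFA2C had log2 fold changes of -0.02 ± 0.124 under N deficiency and 0.17 ± 0.104 under P deficiency (limma, adjusted p 0.96 and 0.41). The other 16 HSF genes had log2 fold changes between -1.09 and 1.64 under N deficiency and between -0.53 and 0.94 under P deficiency, and 0 passed in limma.

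**Figure D4:**
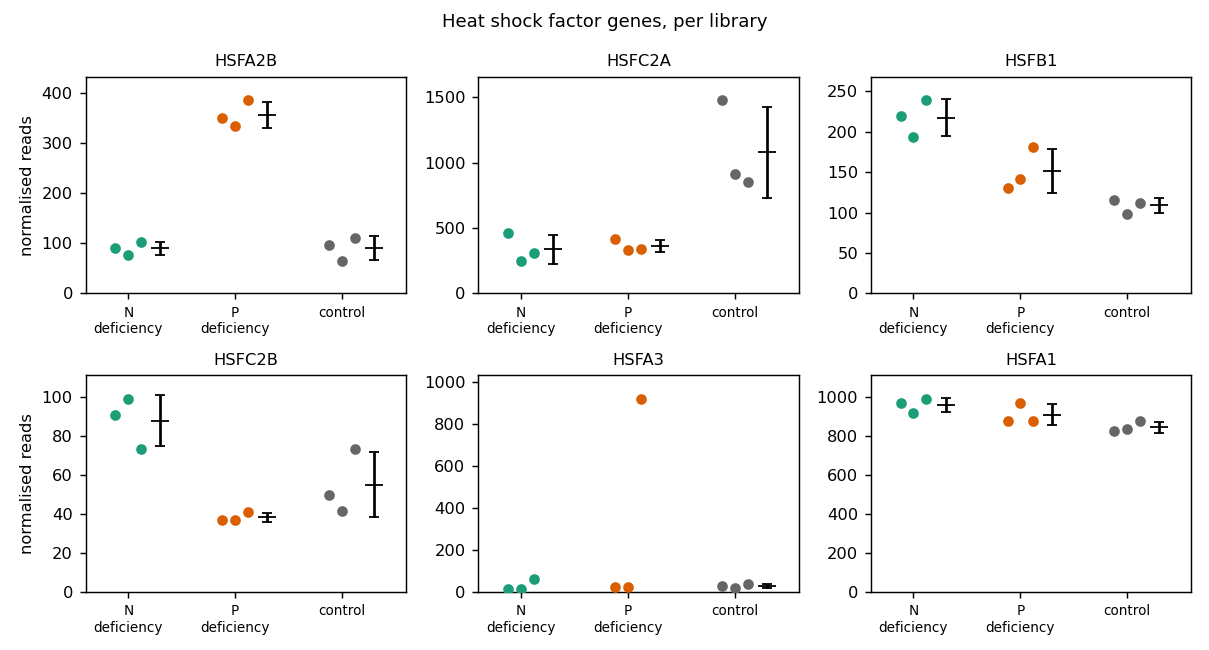
Normalised reads of 6 HSF genes in each library on the scale common to 9 libraries, with N deficiency left, P deficiency middle and control right. Points are libraries 1 to 3 and bars are the mean ± SD, left out where the SD reached the mean. HSFA2B was high in all 3 P deficiency libraries, HSFC2A low in all 6 deficiency libraries, and HSFA3 high in P deficiency library 3 alone.

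Small heat shock proteins changed in both directions. HSP23.2 (chromosome 4, 22200999 to 22201929, plus strand) fell most. It had 39.0, 26.4 and 36.2 normalised reads under N deficiency, against 135, 152 and 249 in control, a log2 fold change of -2.33 ± 0.271 (limma, adjusted p 0.0011). In P deficiency roots it had 40.6, 32.8 and 69.2 normalised reads, against 129, 146 and 236 in control, a log2 fold change of -1.84 ± 0.334 (limma, adjusted p 0.021). No deficiency library reached the lowest control library. The N deficiency call held in 14 of 14 alternatives. The P deficiency call held in 9 and was lost without P deficiency library 1 or 2 or any 1 control library. The log2 difference of N from P deficiency, -0.49 ± 0.320, did not pass (limma, adjusted p 0.50).

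HSP17.9A and HSP18.8 separated the deficiencies. HSP17.9A (chromosome 3, 8805567 to 8806556, plus strand) had 320, 205 and 240 normalised reads under N deficiency, against 459, 484 and 565 in control. Its groups did not overlap, and the log2 fold change was -0.996 ± 0.171 (limma, adjusted p 0.0065). Under P deficiency its log2 fold change was -0.25 ± 0.137 (limma, adjusted p 0.35), with overlapping groups. On the common scale it had 311, 200 and 233 normalised reads under N deficiency, against 381, 378 and 480 under P deficiency. That difference of -0.75 ± 0.172 passed (limma, adjusted p 0.042), but in only 8 of 17 alternatives. HSP18.8 (chromosome 7, 19935503 to 19936423, plus strand) went the other way. It had 588, 622 and 724 normalised reads under N deficiency, against 310, 403 and 344 in control, a log2 fold change of 0.87 ± 0.133 (limma, adjusted p 0.0038). With P deficiency it had 366, 358 and 308 normalised reads, against 297, 386 and 326 in control, a log2 fold change of 0.04 ± 0.135 (limma, adjusted p 0.90). The N deficiency libraries were above all others. The log2 difference of N from P deficiency was 0.83 ± 0.132 (limma, adjusted p 0.0062), kept in 17 of 17 alternatives.

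The abundant HSP24.1 and HSP18.9 did not pass in any comparison. HSP24.1 had 1287, 953 and 835 normalised reads under N deficiency, against 990, 2016 and 1297 in control, so the groups overlapped. Its log2 fold change was -0.45 ± 0.255 (limma, adjusted p 0.33). The 23 Hsp20 genes not named by rule had log2 fold changes between -0.54 and 1.51 under N deficiency, and the 22 tested under P deficiency between -0.36 and 1.21, with 0 passing in limma. The largest of both was HSP16.9B, named after its values were seen, which had 0 reads in all 3 control libraries and at most 2.93 normalised reads elsewhere. Some Hsp20 genes varied more among replicates than between groups. Os03g0157600, also named after its values were seen, had 98.2, 128 and 199 normalised reads under N deficiency, 87.5, 113 and 309 under P deficiency, and 208, 162 and 81.5 in control. Its highest library was P deficiency library 3 and its lowest control library 3, and all 3 groups overlapped. Over members, the median SD between replicates of log2 values was 0.22 under N deficiency, 0.26 under P deficiency and 0.28 in control, against 0.23, 0.25 and 0.22 over all genes.

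Hsp70 genes that passed did so as higher. Os03g0277300 (chromosome 3, 9411494 to 9416082, minus strand) rose most and under both deficiencies. It had 59.9, 93.5 and 97.8 normalised reads under N deficiency, against 21.87, 24.25 and 20.46 in control, a log2 fold change of 1.84 ± 0.256 (limma, adjusted p 0.0025). Under P deficiency it had 67.3, 60.6 and 88.8 normalised reads, against 20.99, 23.17 and 19.38 in control, a log2 fold change of 1.71 ± 0.239 (limma, adjusted p 0.0082). Every deficiency library was more than 2 times as high as any control library, and both calls held in 14 of 14 alternatives. Its level was low for the family, at 23.7 normalised reads per kb over 9 libraries. The most abundant Hsp70 gene, Os03g0276500, lies 38.4 kb away. That gene had 23117, 22431 and 22408 normalised reads under N deficiency, against 15666, 23165 and 25466 in control. Its groups overlapped, and its log2 fold changes of 0.11 ± 0.191 under N deficiency and 0.31 ± 0.206 under P deficiency did not pass (limma, adjusted p 0.78 and 0.44).

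Os06g0212900 rose under P deficiency. It had 69.6, 73.5 and 63.6 normalised reads there, against 24.3, 29.7 and 21.1 in control, a log2 fold change of 1.43 ± 0.225 (limma, adjusted p 0.012). The call held in 11 of 14 alternatives and was lost without P deficiency library 1 or 2 or control library 1. Under N deficiency its 3 values, 43.8, 40.7 and 43.0 normalised reads, were also above control, at 25.32, 31.04 and 22.32. The log2 fold change of 0.69 ± 0.237 did not pass there (limma, adjusted p 0.10), nor did the log2 difference of N from P deficiency of -0.75 ± 0.204 (limma, adjusted p 0.081), which passed in DESeq2 alone (adjusted p 0.032). Os01g0840100, an abundant gene, had 5506, 5184 and 4661 normalised reads under N deficiency, against 2269, 3589 and 3374 in control. No library overlapped, and the log2 fold change was 0.76 ± 0.173 (limma, adjusted p 0.023). The call was lost without any 1 N deficiency library and held in the other 11 of 14 alternatives. Under P deficiency it had 4852, 4781 and 4489 normalised reads, against 2178, 3429.7 and 3197 in control, and a log2 fold change of 0.71 ± 0.173 that did not pass (limma, adjusted p 0.058). It passed in DESeq2 and in 1 fit over all 9 libraries. Os01g0688900 rose under N deficiency to 70.4, 97.6 and 78.3 normalised reads, against 31.1, 32.0 and 58.6 in control. Its log2 fold change of 1.05 ± 0.286 (limma, adjusted p 0.046) passed in 7 of 14 alternatives.

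BIP1, the Hsp70 of the endoplasmic reticulum, had 6473, 6439 and 4541 normalised reads under P deficiency, against 4309, 4536 and 4115 in control. P deficiency library 3 lay at the level of control. It was just above all control libraries here, but on the common scale it had 4613 against 4623 in control library 2. The log2 fold change of 0.41 ± 0.156 did not pass (limma, adjusted p 0.18). Without P deficiency library 3 it was 0.58 and passed (limma, adjusted p 0.0097). Under N deficiency the log2 fold change of BIP1 was 0.14 ± 0.117 (limma, adjusted p 0.52). The 20 tested Hsp70 genes not named by rule had log2 fold changes between -0.51 and 0.77 under N deficiency and between -0.49 and 1.25 under P deficiency, and 0 passed in limma. Under P deficiency 2 of 26 Hsp70 genes passed in limma and 4 in DESeq2, beside 6.28% and 10% of all genes. Between N and P deficiency 0 of 26 Hsp70 genes passed in limma or edgeR, 2 passed in DESeq2, and 4 had an unadjusted limma p under 0.05. Between N and P deficiency the shares of all genes were 6.94% in DESeq2 and 16.6% by unadjusted p, so neither count there stands apart.

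**Figure D5:**
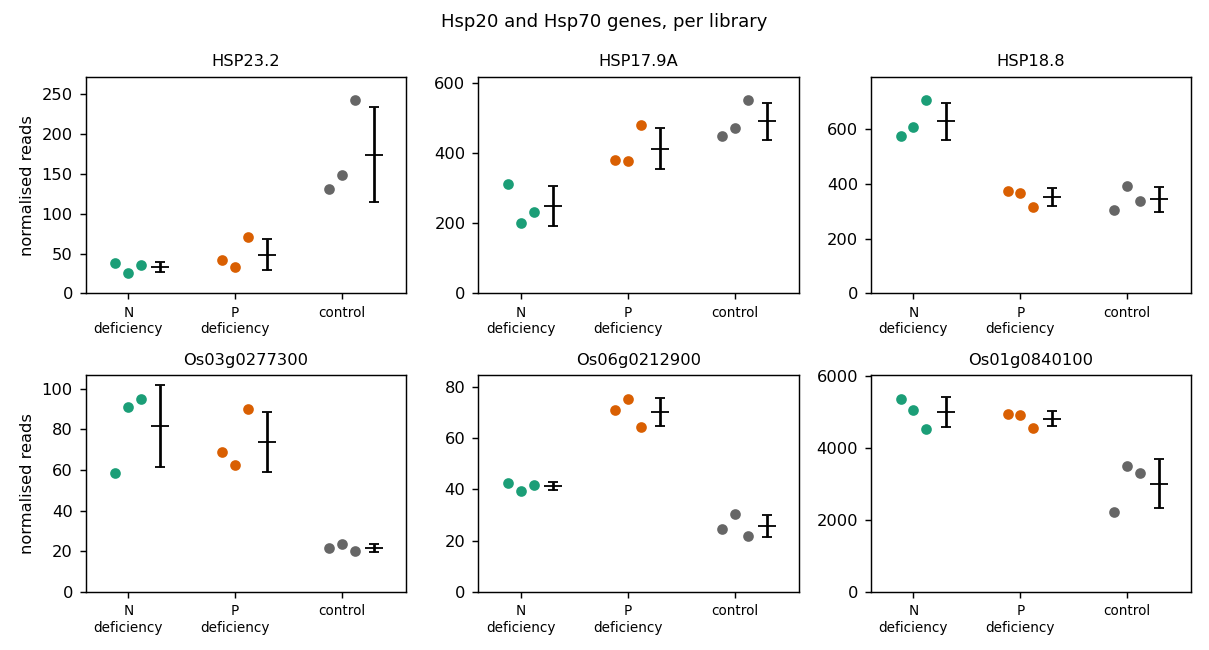
Normalised reads of 3 Hsp20 genes (top) and 3 Hsp70 genes (bottom) in each library on the scale common to 9 libraries, with N deficiency left, P deficiency middle and control right. Points are libraries 1 to 3 and bars are the mean ± SD. HSP23.2 was low and Os03g0277300 high in all 6 deficiency libraries, and HSP18.8 was high in the N deficiency libraries alone.

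Of 10 tested Hsp90 genes, 1 passed under N deficiency, 10%, near the 12.8% of all genes. HSP81-1, the most abundant of them, had 19871, 19668 and 18198 normalised reads under N deficiency, against 13817, 20965 and 18165 in control, with overlapping groups. Its log2 fold changes were 0.14 ± 0.170 under N deficiency and 0.31 ± 0.210 under P deficiency (limma, adjusted p 0.66 and 0.45). Os09g0482400 had 759, 437 and 340 normalised reads under N deficiency, against 1013, 887 and 854 in control. The groups did not overlap, and the log2 fold change of -0.92 ± 0.255 was at the threshold (limma, adjusted p 0.0498), passing in 4 of 14 alternatives. Under P deficiency it had 380, 1025 and 967 normalised reads, against 972, 847 and 809 in control. P deficiency library 1 was the lowest, library 2 was above all control libraries, and library 3 lay within the control range. Os09g0482400 lies between Os09g0482100 and Os09g0482600 on chromosome 9, with gaps of 7.27 and 7.31 kb. Os09g0482100, the second most abundant Hsp90 gene, had a log2 fold change of -0.24 ± 0.115 under N deficiency (limma, adjusted p 0.23). Os09g0534600 had the largest P deficiency value among Hsp90 genes with at least 10 normalised reads, -0.38 ± 0.201 (limma, adjusted p 0.33). Under P deficiency 0 of 11 Hsp90 genes passed in limma, edgeR or DESeq2, and 1 had an unadjusted limma p under 0.05, beside 21.5% of all genes. How reads shared by near-identical genes were counted was not given in the sources used here, so values of close copies are uncertain.

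Other genes of protein folding, 165 with DnaJ (Hsp40), Cpn60, Cpn10, GrpE, CS, Aha1, Clp (Hsp100), FKBP, calreticulin or prefoldin domains, are given for comparison. Under N deficiency 3 of 161 were higher and 8 lower, 6.83% beside 12.8% of all genes. Under P deficiency 3 of 161 were higher and 3 lower, 3.73% beside 6.28%. Between N and P deficiency 1 of 162 passed, 0.617% beside 3.78%. DnaJ proteins are the co-chaperones that load clients onto Hsp70. Of 73 tested DnaJ genes, 2 were higher and 2 lower under N deficiency, 5.48% beside 12.8% of all genes. Among the higher, Os08g0548400 had 641 ± 160 normalised reads under N deficiency and 225 ± 38.7 in control (SD, n = 3 each). Its log2 fold change was 1.49 ± 0.194 (limma, adjusted p 0.0018). Among the lower, Os11g0216100 had a log2 fold change of -1.35 ± 0.261 (limma, adjusted p 0.011). Of 25 tested FKBP genes, 1 was higher and 4 lower under N deficiency, 20% beside 12.8% of all genes. Of 25 tested Cpn60 (chaperonin) genes, 0 were higher and 2 lower under N deficiency, 8% beside 12.8%. Under P deficiency 1 was higher and 1 lower, 8% beside 6.28%. Os08g0428900 was lower under both. Its log2 fold changes were -0.64 ± 0.160 under N deficiency and -0.91 ± 0.145 under P deficiency (limma, adjusted p 0.032 and 0.013). Os03g0859600 was higher under P deficiency, by 0.42 ± 0.0857 on the log2 scale (limma, adjusted p 0.032).

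By position, the BAG gene Os08g0546100 lies 24097 bases from the class B factor HSFB2B, and the BAG gene Os09g0524800 lies 94.3 kb from the class B factor HSFB2C. HSFB2B had a log2 fold change of 0.55 ± 0.274 under N deficiency and 0.56 ± 0.277 under P deficiency, and neither passed (limma, adjusted p 0.26 and 0.30). Os01g0831200 lies 689 bases from a gene with an ammonium transporter domain. Among members, 4 pairs overlap on opposite strands, 3 of Hsp70 genes and 1 of Hsp90 genes. The strand setting of the count was not given in the sources used here, so reads of such partners cannot be told apart. None of the genes that passed is in such a pair.

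The authors' deposited table called 15 of 95 members under N deficiency, beside 13.7% of all genes, and 10 of 95 under P deficiency, beside 9.37%. In the authors' deposited table Os08g0546100 had a log2 fold change of 1.22 and HSP23.2 one of -2.40 under N deficiency.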

How the data were processed

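Rice root RNA was sequenced from TruSeq libraries, 3 per group, per the labels. HISAT2 2.0.5 and the human build hg38 stand in the submitters' processing notes. The rice build behind the coordinates, the counter, its strand setting and the annotation were not given in the sources used here. The authors deposited a normalised signal per library, made by dividing gene reads by 1 size factor per library, separately in 2 tables of 35128 and 35059 genes. Whole reads were recovered for 100% of values within 0.001. Log2 fold change and p-value columns in the deposited tables are the authors' own.

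The test was limma-trend (limma 3.58.1, R 4.3.3) of log2(value + 1), with Benjamini-Hochberg adjustment over all genes with a mean of at least 1 in 1 group. Comparisons with control used the 6 libraries of 1 table. N against P deficiency used all 9, after giving the recovered reads 1 common scale by median-of-ratios size factors. Alternatives were a pseudocount of 0.1, no filter, a mean of at least 10, edgeR 4.0.16 and DESeq2 1.42.0 on recovered reads, the replicate number as a block, other sets of libraries and each library left out. The steps were tested on simulated data. Levels per kb used the deposited gene length.

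Members and lists were chosen with earlier results of these data known. Genes named were all that passed, the 2 highest per kb in each family, and the largest change per family and comparison with at least 10 normalised reads. Symbols for 40 members were matched by locus to a RefSeq gene table of assembly ASM3414082v1, checked through 96 genes, and other members keep their locus ID.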

Additional observations from a re-analysis of the deposited data

Results flagged for a closer look

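For 4 members the change under N deficiency differed from that under P deficiency by a test of the difference itself. That test was the contrast of N with P deficiency over 9 libraries (limma, adjusted p under 0.05). The 4 were 4.30% of 93 tested members, near the 3.78% of all genes tested. The log2 difference was 1.17 for HSFC2B and -1.98 for HSFA2B. HSP18.8 had a log2 difference of 0.83 and HSP17.9A one of -0.75. Of these, HSFA2B and HSP18.8 passed in 17 of 17 alternatives, HSFC2B in 13 and HSP17.9A in 8. For HSFA2B the P deficiency libraries were the high ones, and for HSP18.8 the N deficiency libraries.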

How the results depend on the processing

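Leaving out 1 library moved the counts of members most. With each library left out in turn, the number of members that passed (limma, adjusted p under 0.05) was 9 to 13 under N deficiency, against 14 with all libraries, and 9 without N deficiency library 3 or control library 2. It was 3 to 10 under P deficiency, against 7, and 3 without P deficiency library 1 or 2 or control library 1, and 4 without control library 2. It was 2 to 4 between N and P deficiency, against 4, and 2 without N deficiency library 2 or P deficiency library 1 or 2. The share of all genes that passed moved as well. It was 8% without N deficiency library 3 and 8.03% without control library 2, against 12.8%, and lay between 2.14% and 10.4% under P deficiency, against 6.28%, and between 2.1% and 4.79% between N and P deficiency, against 3.78%. BAG genes that passed numbered 2 to 5 under N deficiency, with 3 without N deficiency library 2 or 3 and 2 without control library 2. Under P deficiency they numbered 0 to 3, with 0 (limma) without P deficiency library 1 or 2 or control library 1 or 2, where 3 kept an unadjusted p under 0.05, and 1 without control library 3. With all libraries, 21.5% of all genes had an unadjusted limma p under 0.05 under P deficiency. There edgeR called 2 BAG genes and DESeq2 called 3, beside 6.07% and 10% of all genes. DESeq2 called 7 members between N and P deficiency, against 4 in limma, beside 6.94% and 3.78% of all genes. The other settings left the counts within 1.5 times, and no named member that passed changed sign. The cause of these changes was not tested. Each left-out library lowers the number of samples. Under P deficiency, leaving out P deficiency library 3 raised the members passing from 7 to 10. The share of all genes rose there from 6.28% to 10.4%. Correlations of same-numbered libraries between groups ran from -0.06 to 0.23. Libraries numbered 2 and 3 matched their own number best in each comparison, and those numbered 1 did not. Whether the numbers pair the samples was not tested. With the number as a replicate block, 14 members passed under N deficiency, 7 under P deficiency and 5 between them. The shares of all genes were then 14.3%, 6.46% and 4.64%. The share of promoters with a heat shock element was not run, since no promoter sequences were used here. In each comparison 93 members could be tested, and those left out of it had 2 to 6 reads or no entry in the table.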
